A study of Homo sapiens with 4 samples.

Results

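The peaks described here are the HIF-1α peaks of H1299 cells with a score under 70, which were 3568 of the 4054 peaks in the HIF-1α list and of the 6776 peaks in the 3 lists of the series. They were selected on the peak score itself, so the score is given as a description and not tested. The series holds chromatin immunoprecipitation followed by sequencing (ChIP-seq) with an antibody against HIF-1α in H1299, a line from human non-small-cell lung cancer, with an antibody against HAUSP in H1299, and with an antibody against HAUSP in MDA-MB-231, a line from human breast cancer. Both lines were grown in DMEM with fetal bovine serum, and the oxygen level of each library is not given in the sources used here. Each list came from 1 library, so no value below has a replicate check, and a p-value with peaks as units describes the list and not the condition. The H1299 input library was not used here.

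HIF-1α is the oxygen-regulated subunit of the transcription factor HIF-1, which binds hypoxia response elements whose core reads ACGTG or GCGTG. In cells short of oxygen it is spared from degradation and acts at promoters and enhancers of genes for glycolysis, angiogenesis and erythropoiesis. HAUSP, also called USP7, removes ubiquitin from proteins. A peak caller lists every region whose read pile-up passes its threshold, and the regions with the lowest scores are those that passed it by the least.

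Most of the low-score peaks lay in AT-rich sequence away from promoters, and a peak with the median score of the densest 5 Mb bin of the list is shown first for that reason. It lay at chr5:85672610-85673445 (hg19) between genes, 240718 bp upstream of the start of COX7C, had a score of 54.42 and a GC content of 36.5%, and did not overlap a HAUSP peak. It was typical in score and GC content and less so in place. Of the low-score peaks, 62.3% lay inside a gene, and the median distance to a coding start was 49603 bp. The 150 bases at its middle, chr5:85672953-85673102 on the plus strand, hold neither ACGTG nor GCGTG.
Middle of a typical low-score peak: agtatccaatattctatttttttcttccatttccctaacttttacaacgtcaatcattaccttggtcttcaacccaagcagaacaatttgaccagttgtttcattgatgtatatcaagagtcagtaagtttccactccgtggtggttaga

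A small number of low-score peaks overlapped an H1299 HAUSP peak, and these differed from the bulk, with a HIF core in most and mostly GC-rich sequence. The windows below are from 8 of them and show the ACGTG nearest to the peak centre in capitals, on the strand on which it reads ACGTG (hg19). The shorter window lies in an untranslated region. Each window is named by the protein-coding gene with the nearest start, which for DDIT4L was 94081 bp away. They came from chr9:6757658-6757686 at KDM4C (plus strand), chr15:72519187-72519251 in PKM (plus), chr5:172756532-172756596 near STC2 (minus), chr11:14542104-14542168 at PSMA1 (minus), chrX:74493775-74493839 at UPRT (minus), chr4:101017301-101017365 nearest to DDIT4L (plus), chr6:6008213-6008277 at NRN1 (minus) and chr9:20624965-20625029 near MLLT3 (plus).
KDM4C: gcgcccaggaggACGTGtggcgcgtggac
PKM: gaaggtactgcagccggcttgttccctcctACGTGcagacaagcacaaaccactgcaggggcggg
STC2: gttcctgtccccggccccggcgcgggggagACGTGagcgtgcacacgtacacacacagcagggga
PSMA1: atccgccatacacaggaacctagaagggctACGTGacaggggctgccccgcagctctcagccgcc
UPRT: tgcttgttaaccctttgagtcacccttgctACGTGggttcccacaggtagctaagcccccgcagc
DDIT4L: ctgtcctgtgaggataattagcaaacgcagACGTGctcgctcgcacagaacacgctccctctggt
NRN1: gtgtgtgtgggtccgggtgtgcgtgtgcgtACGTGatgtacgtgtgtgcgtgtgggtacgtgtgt
MLLT3: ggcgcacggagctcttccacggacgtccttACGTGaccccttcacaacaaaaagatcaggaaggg

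The scores of the 3568 peaks ran from 50.02 to 69.99 with a median of 55.24, on a scale that the sources used here do not name. Their widths ran from 274 to 1914 bp with a median of 558 bp. The score limit did not fall at a gap in the list. Named by the protein-coding gene with the nearest transcript start, the peaks just under it were those of FAM241A (69.86), NCOA2 (69.9), ITSN1 (69.91), ANKFN1 (69.93) and GABBR2 (69.99), all with their centre in an intron of some gene, and those just over it were PDIA5 (70.03), PDC (70.1), FMN1 (70.1), GRIK2 (70.13) and PCDH18 (70.14). None of these 10 peaks overlapped a HAUSP peak.

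Few low-score peaks had a HAUSP peak of the same cells on them. Of the 3568, 27 (0.757%, exact binomial 95% interval 0.499 to 1.10%) overlapped one by 1 bp or more, against 83 of the 486 peaks with a score of 70 or more (17.1%) and 2.71% of HIF-1α peaks of any score (two-sided Fisher's exact test, p = 9.98e-56, Benjamini-Hochberg adjusted over 9 tests 8.98e-55). The window of 500 bp on either side of an annotated gene start, called the TSS window here, was touched by 84 low-score peaks (2.35%) and by 60 of the peaks with a score of 70 or more (12.3%), beside 3.55% for any score (Fisher's exact test, adjusted p = 9.23e-20). Annotated genes include non-coding genes and pseudogenes. With protein-coding starts only, the counts were 27 low-score peaks (0.757%) and 45 of the peaks with a score of 70 or more (9.26%). ACGTG on either strand stood in 675 low-score peaks (18.9%) and in 164 of the others (33.7%), beside 20.7% for any score (Fisher's exact test, adjusted p = 1.25e-12).

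Within the low-score peaks these shares stayed low along the score. In the 800 peaks with a score from 50 to 52, 17.9% held ACGTG, 2.13% touched a TSS window and 0.375% overlapped a HAUSP peak. In the 277 peaks from 65 to 70 the shares were 22.7%, 4.69% and 1.81%. The 294 peaks from 70 to 80 were near these, with 19.7%, 4.08% and 3.06%, and the shares were 69.2%, 38.5% and 57.7% in the 52 peaks from 100 to 200 and 89.7%, 55.2% and 89.7% in the 29 peaks of 200 or more. The classes are given as a description, with no test between neighbours.

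The low-score peaks were spread over the autosomes and X but unevenly. Of the 3568, 3567 lay on a chromosome and 1 on an unplaced contig, with no peak on Y. In 573 bins of 5 Mb, each with at least 2.5 Mb of called bases, the median density was 1 peak per Mb, and the interquartile range was 0.403 to 2. The highest bin held 5 per Mb, and 43 of the 569 bins outside Y held none. The variance of the counts per bin was 4.03 times their mean, whereas counts scattered evenly would have a variance about equal to the mean. Neighbouring bins were alike, with Spearman's rho of 0.654 over 535 pairs, given as a description because bins share the library and the base composition of their neighbourhood.

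The densest bin lay on chromosome 5 from 85 to 90 Mb with 25 peaks, or 5 per Mb (exact Poisson 95% interval 3.24 to 7.38). Those 25 peaks had scores from 50.03 to 69.29 and a median GC content of 36.5%, 17 lay in genes, 2 held ACGTG, none touched the TSS window of a gene and none overlapped a HAUSP peak. The next bins were chromosome 7 from 85 to 90 Mb (24 peaks), chromosome 6 from 80 to 85 Mb and chromosome 12 from 20 to 25 Mb (21 each), and then chromosome 8 from 115 to 120 Mb, chromosome 2 from 165 to 170 Mb and chromosome 6 from 110 to 115 Mb (20 each). Chromosome 6 from 125 to 130 Mb, chromosome 8 from 55 to 60 Mb and chromosome 5 from 115 to 120 Mb held 19 each. The intervals of these 10 bins overlapped, so their order is not resolved by the counts. Their GC contents ran from 36.2 to 39.7%, and they held 0 to 4 peaks with a score of 70 or more and 0 to 3 H1299 HAUSP peaks each.

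Dense bins stood beside each other in long stretches. Of the bins, 150 reached 2 times the median density, and 104 of these formed 21 runs of 3 or more bins that together held 1442 low-score peaks. The longest run covered chromosome 6 from 50 to 115 Mb, with 13 bins, 189 peaks and 3.07 peaks per Mb (2.64 to 3.54). Chromosome 3 from 130 to 180 Mb followed with 10 bins, 133 peaks and 2.66 per Mb (2.23 to 3.15). Chromosome 12 from 55 to 90 Mb held 96 peaks in 7 bins, and chromosome 5 from 70 to 100 Mb held 87 in 6. At a shorter range the peaks were scattered, since the median distance to the nearest other low-score peak was 190005 bp and 3.81% had one within 10 kb.

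**Figure D1:**
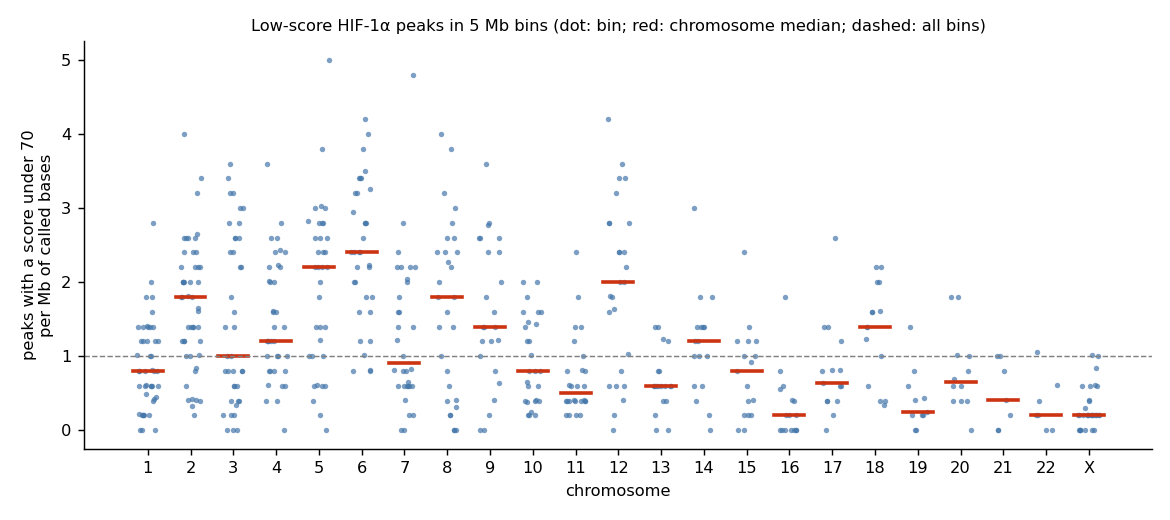
Low-score HIF-1α peaks per Mb of called bases (y axis) in 5 Mb bins (dots), by chromosome (x axis); red lines are chromosome medians and the dashed line is the median of all bins, 1 per Mb. Bins of chromosomes 5, 6 and 12 lie mostly above the dashed line, those of 16, 19, 22 and X mostly below, and chromosomes 3 and 8 hold bins at both ends; no order along the chromosome is drawn.

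Bins with a lower GC content held more low-score peaks, down to a limit. Density was 0.519 per Mb (exact Poisson 95% interval 0.451 to 0.594) in bins of 45 to 60% GC, 0.771 in those of 42 to 45%, 1.26 in those of 40 to 42%, 1.56 in those of 38 to 40% and 1.86 (1.75 to 1.98) in those of 36 to 38%. In the 37 bins of 34 to 36% GC it was lower again, 1.45 (1.28 to 1.63). Spearman's rho between density and GC content was -0.431 over 573 bins, and it was -0.242 with the number of protein-coding genes of the bin, which moves with GC. Bins of 36 to 38% GC still ran from 0 to 5 peaks per Mb, with quartiles of 0.95 and 2.6. Single bins hold few peaks, so counting error is part of this spread, and it cannot be set against the pooled classes.

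The arms of some chromosomes differed widely from each other at a similar GC content. Over the 41 chromosome arms with at least 10 Mb of called bases, density ran from 0.171 per Mb on 16p to 2.54 on 6q, a 14.8-fold range, and rho with the GC content of the arm was -0.461. On chromosome 8 the short arm held 17 low-score peaks, or 0.389 per Mb (exact Poisson 95% interval 0.226 to 0.622), and the long arm held 221, or 2.23 per Mb (1.94 to 2.54), a ratio of 5.73. On chromosome 3 the short arm held 47 (0.520 per Mb, 0.382 to 0.692) and the long arm 244 (2.34, 2.05 to 2.65), a ratio of 4.49. On chromosome 5 they held 38 (0.820) and 303 (2.31), a ratio of 2.81, although the short arm, with 39.2% GC, was about as AT-rich as the long arm with 39.6%. Chromosome 4 was ordered the other way, with 2.13 per Mb on its short arm and 1.22 on its long arm, and here the denser arm was the more GC-rich (40.4 against 37.5%).

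The gap between arms held among bins of like base composition. In bins of 37 to 41% GC, density was 0.522 per Mb on 3p (0.341 to 0.764) against 2.71 on 3q (2.29 to 3.18), 0.733 on 8p (0.366 to 1.31) against 2.48 on 8q (2.11 to 2.89), and 1.08 on 5p (0.713 to 1.57) against 2.52 on 5q (2.15 to 2.94). In the same class 13q held 0.533 and Xq 0.324 per Mb, while 6q held 2.67, 12p 2.52 and 6p 2.44. None of the intervals of 3p, 8p, 13q and Xq reached those of 3q, 8q, 5q and 6q. They cover counting error only.

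HIF-1α peaks with a score of 70 or more followed the same arms. They numbered 8 on 3p (0.0885 per Mb) and 31 on 3q (0.297), and 1 on 8p (0.0229) and 24 on 8q (0.242). On chromosome 5 they numbered 5 on 5p (0.108) and 35 on 5q (0.266). Over the 41 arms, rho between the densities of the low-score peaks and of these peaks was 0.760. Over the 5 Mb bins that rho was 0.398. It was 0.427 with the 322 peaks of 70 or more without ACGTG and 0.1203 with the 164 that held it, which are fewer. All of these come from the same library.

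The HAUSP lists shared this pattern on some chromosomes and not on others. In the 418 bins that lay away from gaps in the assembly, rho of low-score HIF-1α density was 0.0685 with H1299 HAUSP peaks and -0.181 with MDA-MB-231 HAUSP peaks. On chromosome 3 the H1299 HAUSP list held 18 peaks on the short and 23 on the long arm (0.199 and 0.220 per Mb). That of MDA-MB-231 held 16 and 22. On chromosome 5 the H1299 list held 6 and 58 (0.129 and 0.442 per Mb). The MDA-MB-231 list held 30 and 36 on arms of 46.3 and 131 Mb of called bases, so it was denser on the short arm. On chromosome 8 both lists were denser on the long arm, but by less per Mb than the HIF-1α peaks. The H1299 list held 15 on the short and 61 on the long arm, or 0.343 and 0.615 per Mb (4 and 34 peaks away from gaps). That of MDA-MB-231 held 14 and 52 (5 and 25 away from gaps) on arms of 43.7 and 99.2 Mb of called bases. On 13q the H1299 list held 7 peaks and the MDA-MB-231 list 30. Across the 41 arms, rho between low-score HIF-1α density and the ratio of H1299 to MDA-MB-231 HAUSP peaks away from gaps (0.5 added to each count) was 0.0583. Read density of the input and the copy number of the arms were not analysed here, and their part in the densities was not tested.

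Single low-score peaks were also poorer in GC than the sequence beside them. Their mean GC content was 37.1%, against 38.8% in flanks of the same width centred 2000 bp to either side, and 61.7% of the 3557 peaks that differed were below their flanks (exact sign test, two-sided, adjusted p = 5.70e-44). Quartiles of the difference from the flanks were -5.01 and 2.08 percentage points around a median of -1.57. Among peaks with a score of 70 or more 51.2% were below their flanks, against 61.5% of all low-score peaks (Fisher's exact test, adjusted p = 1.87e-05). Of the 81 peaks with a score of 100 or more, 24.7% were below. The 405 peaks from 70 to 100 had a median difference of -1.02 percentage points and a median GC content of 36.5%. The dip was thus not particular to scores under 70. Mean GC content of the low-score peaks was 37.2% within 100 bp of the centre, 37.3% at 250 to 500 bp, 38.6% at 1 to 2 kb and 39.0% at 3 to 5 kb, so the dip was shallow and wider than the peaks. Reads with more than 1 placement were dropped in mapping, whereas flanks were not limited to sequence where reads map to 1 place. The part of this in the dip was not tested.

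The low GC content did not come with long homopolymers. A run of 15 or more A or of T stood in 3.70% of low-score peaks (3.10 to 4.37%), in 6.01% of their flanks and in 7.56% of 508168 genome windows of 558 bp. A TA repeat of 20 or more bases stood in 0.0561% of the peaks and 0.392% of flanks, and a TG repeat of that length in 1.26 and 1.36%. Peaks and flanks are compared here by their intervals, without a test. The limit to reads with 1 placement holds for the peaks and not for flanks or genome windows, and its part was not tested.

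Of the 2 core words, ACGTG was about as frequent in low-score peaks as beside them, and GCGTG was rarer. ACGTG, searched on both strands, stood in 18.9% of the peaks, 17.7% of the left flanks, 17.9% of the right flanks and 20.03% of genome windows of 558 bp. Among the 1040 peaks that differed from their left flank in holding it, 52.02% held it in the peak (exact McNemar test, two-sided, p = 0.204), and among the 1075 that differed from the right flank, 51.7% did (p = 0.272). GCGTG stood in 11.5% of the peaks (10.5 to 12.6%), 18.8% of flanks and 23.2% of genome windows. With either word counted, the shares were 27.4% (26.0 to 28.9%), 32.1% (31.0 to 33.2%) and 37.8%, lower in the peaks than in flanks or genome. Flanks and genome windows include sequence where reads do not map to 1 place, which the peaks do not, and the part of this was not tested. Per 100 bp, ACGTG stood in 3.74% of windows within 100 bp of the centre and in 3.66% at 3 to 5 kb, so no rise at the centre was detectable over all low-score peaks; in peaks with a score of 70 or more the same shares were 10.5 and 3.73%.

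Set against flanks of like GC content, the share with ACGTG was far higher only in the class of the most GC-rich members. Of the 53 low-score peaks with a GC content of 50% or more, 35 held ACGTG (66.0%, exact binomial 95% interval 51.7 to 78.5%), against 21.9% (17.9 to 26.2%) of 407 flanks of that composition. In the 898 peaks under 34% GC the share was 13.4% beside 11.7% in flanks, and in the 1364 from 34 to 38% it was 19.1% (17.1 to 21.3%) beside 15.7% (14.0 to 17.6%). In the 856 from 38 to 42% it was 18.2% beside 20.8%, the other way, and in the 397 from 42 to 50% it was 25.9% beside 22.7%. The intervals of peaks and flanks overlapped in each of these 4 classes, and no test was made within classes.

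**Figure D2:**
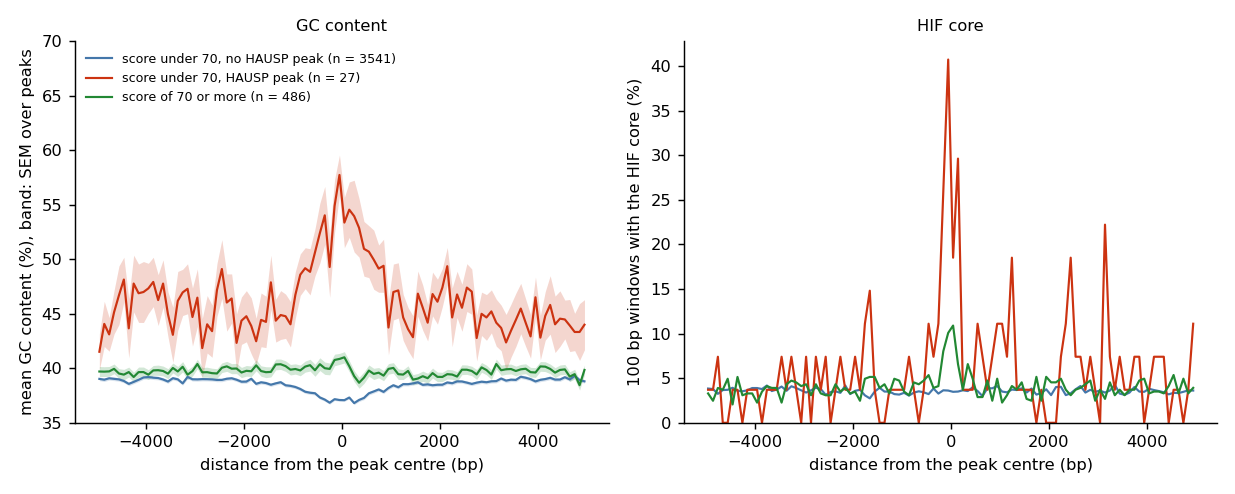
Mean GC content (left, y axis, percent, band: standard error over peaks) and share of 100 bp windows with ACGTG on either strand (right, y axis, percent) against distance from the peak centre (x axes, bp) for low-score HIF-1α peaks without a HAUSP peak (blue), low-score peaks with one (red) and peaks with a score of 70 or more (green). Blue dips to a GC content of 37.1% within 100 bp of the centre with a flat core share, while red peaks at the centre in both panels, at 55.6 and 29.6% within 100 bp.

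By gene place the low-score peaks resembled the genome around them. Of the 3567 on chromosomes, 57.0% had their centre in an intron, 37.2% between genes, 3.98% in an exon and 1.79% in a TSS window. Their flanks gave 57.1, 37.3, 3.97 and 1.64%, and a grid of points every 10 kb over the genome gave 55.9, 37.3, 4.70 and 2.10%. Among peaks with a score of 70 or more 10.5% were in a TSS window and 49.6% in an intron. The share inside any annotated gene was 62.3% of low-score peaks and 63.4% of the others (Fisher's exact test, p = 0.654). The median distance to the nearest start of a protein-coding transcript was 49603 bp, against 39842.5 bp for the grid, 49476 bp for the flanks and 36555 bp for peaks with a score of 70 or more.

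The genes that held most low-score peaks were mostly long genes. EYS, a gene of photoreceptors, held 12 centres in 1987 kb with 35.1% GC, LRP1B, a lipoprotein receptor relative, held 8 in 1900 kb, and PDE4D, a cAMP phosphodiesterase, held 7 in 1553 kb. ARHGAP26, a GTPase-activating protein, held 6 in only 459 kb, or 13.1 per Mb, and CNTNAP2, a neuronal adhesion protein, held 6 in 2305 kb, or 2.60 per Mb. SAMD12, B3GALT1, ZFPM2, NRXN3 and PCDH15 were among those that held 5 each. Among protein-coding genes of 1000 kb or more, 66.2% of 71 held at least 1 centre, against 3.27% of the 11243 genes of 10 to 100 kb. Per Mb of gene the gap was smaller, with 1.33 and 0.896 peaks.

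The 27 low-score peaks with an H1299 HAUSP peak differed from the other 3541 in place, sequence and composition. These traits were not particular to the 27. Of HIF-1α peaks with a score of 100 or more, 44.4% touched a TSS window and 76.5% held ACGTG, and their median GC content was 51.3%. The 27 were chosen by lying on HAUSP peaks, and the same shares were not counted for HAUSP peaks as such. Scores of the 27, from 50.11 to 69.14 with a median of 58.47, covered the range of the low-score peaks. The HAUSP peaks on them had scores from 50.7 to 259.57 with a median of 120.54. In 26 the whole HIF-1α peak lay inside the HAUSP peak. TSS windows of genes were touched by 14 (51.9%, exact binomial 95% interval 31.9 to 71.3%) against 1.98% of the low-score peaks without HAUSP (Fisher's exact test, adjusted p = 1.86e-16). With the starts of all annotated transcripts in place of 1 start per gene it was 18, or 66.7%, against 3.98%. ACGTG stood in 20 of the 27 (74.1%, 53.7 to 88.9%) against 18.5% (Fisher's exact test, adjusted p = 8.08e-10). Either word, ACGTG or GCGTG, stood in 26 (96.3%) against 26.9% of those without HAUSP, and this was not compared at like GC content.

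GC content moved with both, and its part in the 2 differences was tested only for the core. Its median was 56.7% in the 27 and 36.5% in the other 3541, and 22 of the 27 were above their flanks. Among peaks with a GC content of 50% or more, ACGTG stood in 16 of 19 with HAUSP (84.2%) and 19 of 34 without it (55.9%), a difference that Fisher's exact test did not call (p = 0.0678). Away from transcript starts, 5 of the 9 peaks with HAUSP (55.6%, 21.2 to 86.3%) and 18.3% of 3400 without it held ACGTG. At transcript starts it was 15 of 18 with HAUSP (83.3%) and 33 of 141 without it (23.4%, 16.7 to 31.3%). In 14 of the 27 the nearest ACGTG lay within 100 bp of the peak centre. The median width of the 27 was 487 bp, so that band covers much of a peak, and no background share was counted for it.

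At promoters the members with HAUSP served varied genes. C4orf47 had the highest HIF-1α score of the 27 (69.14), with 3 copies of ACGTG 94 bp or more from the centre and a HAUSP score of 108.81. The peak at MZF1, a zinc finger factor, scored 67.87. That at KDM4C, a histone lysine demethylase, scored 67.46 with 5 copies of ACGTG, 3 of GCGTG and a HAUSP score of 216.29, and its centre was 106 bp inside the gene from a transcript start. PSMA1, a subunit of the proteasome core, scored 60.99 with 1 ACGTG 17 bp from the centre, and UPRT, of the uracil phosphoribosyltransferase family, scored 59.48 with 1 of its 2 copies 3 bp from the centre. These 2 windows, printed above, carry the core nearly at the middle of the peak.

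Other promoter members were TOP3A, a DNA topoisomerase (56.75), NRN1, a neurite growth factor (56.53, 3 copies of ACGTG), MGAT5B, a glycosyltransferase (56.08, with a HAUSP score of 237.47), ALKBH5, an RNA demethylase (54.53), PRELID2 (53.34), DUS3L, a tRNA-modifying enzyme (52.58, 3 copies, 1 at 13 bp), and ESYT1, a tether between endoplasmic reticulum and plasma membrane (50.77). The peak at ASPH, an aspartyl hydroxylase of the endoplasmic reticulum, scored 61.36 with 4 copies of ACGTG, 1 of them 17 bp from the centre. A peak in the TSS window of SNORD118, a small nucleolar RNA, scored 65.03. Its centre lay inside TMEM107, 2660 bp downstream of a coding transcript start of that gene. TTC30A (62.25), FAM234B (56.34) and DDX50, an RNA helicase (55.71), had GCGTG only, with 2, 3 and 2 copies.

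The 9 members with HAUSP that touched no transcript start lay in introns or between genes. The peak in PKM, which encodes the pyruvate kinase of glycolysis, scored 63.21, stood in an intron 1829 bp downstream of a coding transcript start, held 1 ACGTG 31 bp from the centre, and lay under a HAUSP peak of 259.57, the highest of the 27. The peak 1131 bp upstream of STC2, a secreted glycoprotein induced by hypoxia, scored 63.05 with 2 copies of ACGTG, 1 of them 17 bp from the centre, and had the highest GC content of all low-score peaks, 69.1%. A peak 2538 bp upstream of MLLT3, a chromatin reader of transcription elongation, scored 51.36 with 2 copies of ACGTG and had the lowest GC content of the 27, 36.5%. Those nearest to DDIT4L (58.47) and NPEPPS (56.71) held 1 and 2 copies, and lay 94081 and 20658 bp from the start of that gene. The peaks in PDE11A (67.59, 6 GCGTG) and nearest to TOX (64.58, 1 GCGTG) and GOLGA6L6 (50.11, 1 GCGTG) held no ACGTG, and that nearest to ARF6 (55.8) held neither word. Distances to the start were 104247 bp for TOX, 120075 bp for GOLGA6L6, whose peak lay near an assembly gap, and 106027 bp for ARF6. In these cases the gene only names the place.

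Overlap with HAUSP of the other line was rarer still. HAUSP peaks of MDA-MB-231 overlapped 7 of the 3568 low-score HIF-1α peaks (0.196%). Among the 486 HIF-1α peaks at or above the score limit they overlapped 59 (12.1%). All 7 low-score peaks also overlapped an H1299 HAUSP peak.

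Known HIF target genes were counted on a list of 55, all matched to the annotation, which was written with earlier results of these data known and is not independent evidence. It does not hold PKM, which had a low-score peak at a transcript start and another in an intron. Of the 55, 1 (KDM4C) had a low-score peak at a transcript TSS window, or 1.82%, beside 0.491% of all 20176 protein-coding genes, while 18 (32.7%) had a peak with a score of 70 or more there, beside 0.377%. In the gene or within 10 kb of it, 6 of the 55 (10.9%) had a low-score peak, beside 8.19% of all protein-coding genes, so that count was near the background. KDM4C and STC2 are described above. The peak within 10 kb of HIF1A lay past the end of that gene, at the start of the antisense RNA HIF1A-AS3. Its centre was 5630 bp downstream of the nearest HIF1A transcript start, which lies near the end of the 52.7 kb gene. This peak scored 65.44 with 67.6% GC and ACGTG but no HAUSP peak. The peak in SLC2A3, a glucose transporter, scored 52.66 and held ACGTG. One with a score of 52.74 lay in the 219 kb that the annotation gives to PGK1, a glycolytic kinase. Its centre was 66968 bp downstream of the nearest PGK1 start, so its place in that gene rests on this long annotated span. That peak and the one in RLF (51.75) held neither word.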

How the data were processed

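ChIP-seq was made by the authors in H1299 (HIF-1α, HAUSP and input) and MDA-MB-231 (HAUSP), with 1 library each. According to the submitters' processing notes and the methods, reads were mapped to hg19 with Bowtie 0.12.7 and peaks called with MACS 1.4.2. The methods give the Bowtie setting m1, which keeps only reads with 1 placement. The deposited values are peak lists with a score per peak, whose scale and control are not given in the sources used here; read depth is therefore unknown. Intervals cover counting error only. The HIF-1α list names chromosomes in another form than the HAUSP lists, so it may have been made on another build of hg19. All lists were read as GRCh37 coordinates, and a difference in handling between them was not tested.

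Peaks with a score under 70 were placed on GRCh37 with GENCODE release 44 lifted to it and counted in 5 Mb bins. Flanks were 2000 bp away. Fisher's exact, sign and McNemar tests took peaks as units, with Benjamini-Hochberg adjustment over 9 tests. The planned sign test of ACGTG presence against the mean of 2 flanks gave 41.1% higher in the peak (p = 2.10e-12), but presence or absence in 1 window is not balanced against a mean of 2, so exact McNemar tests, added after the data were seen, are reported instead. Genes named were all low-score peaks with HAUSP, the 10 densest bins, the genes with the most centres (11 because of ties), HIF targets and the 5 peaks on each side of the limit. The windows printed were chosen from these, and some named by this rule are not reported here. The members, the 55 HIF targets and the tests were chosen with earlier results of these data known. The code was tested on simulated data. Statistics came from scipy 1.17.1 and sequence was read with pysam 0.24.0, under Python 3.11.15.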

Additional observations from a re-analysis of the deposited data

How the results depend on the processing

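Each of the 10 results was recomputed under 64 other settings in all and 6 more chosen after seeing the data. The overlap with HAUSP, the share at TSS windows, the share with ACGTG by score and the GC content against flanks kept direction and call under each of those tried for it. The share in gene bodies turned with protein-coding genes only (44.5 against 44.03%, Fisher's exact test, p = 0.846) and was called in no setting. Against 1 flank by exact McNemar tests, ACGTG was higher in the peak in 52.02% (left) and 51.7% (right) of the peaks that differed, where the planned test, unbalanced for presence or absence, gave 41.1%; neither was called. Among peaks of 50% GC or more the difference in ACGTG with and without HAUSP was 84.2 against 55.9% and was no longer called (Fisher's exact test, p = 0.0678), with fewer peaks tested. The densest 10% of bins held 26.2% of low-score peaks, 23.9% without peaks near gaps and 35.7% with bins of 1 Mb. No paired analysis was possible because every group has a single library. The depth behind the peaks is unknown, and peaks under the lowest listed score, 50.02, were not analysed here.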

Other observations

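Low-score peaks at a transcript start with ACGTG but without a HAUSP peak numbered 33, and those named here were chosen after their values were seen. A second peak in PKM, at the start region of the gene, scored 61.36 with 65.3% GC. P4HB, a protein disulfide isomerase that is also a subunit of collagen prolyl hydroxylase, scored 61.07 with 65.5% GC, and PPP1R13L, an inhibitor of p53, scored 65.94 with 62.7%. RNF5, a ubiquitin ligase of the endoplasmic reticulum (58.57), and TXNDC12, a thioredoxin-like protein of the same compartment (53.74), had 56.5 and 54.7% GC. Others of the 33 were AT-rich, such as COL17A1, a collagen of epithelial anchoring (64.76, 30.9% GC), MEF2C, a muscle and neural transcription factor (52.66, 38.6%), and CD44, a hyaluronan receptor (50.77, 43.2%). The median GC content of all 141 low-score peaks at transcript starts without HAUSP was 38.4%, against 57.4% in the 18 with it.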
